A study of Mus musculus with 24 samples.

Results

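Guanylate-binding proteins (GBPs) and immunity-related GTPases (IRGs) were followed in RNA-seq of bone marrow-derived macrophages (BMDMs). The 9 members were Gbp2, Gbp3, Gbp5, Gbp7, Gbp9, Irgm1, Irgm2, Igtp and Iigp1. They were chosen by name, as the rows of the count table whose Ensembl identifier carries one of these symbols in GENCODE M21, and they make up 9 of the 22165 genes listed. All 9 members passed the filter on low counts.

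Cells came from WT and Irg1-/- mice, both on the C57BL/6N background and 8 to 20 weeks old per the labels. Irg1, named Acod1 in the table, encodes the mitochondrial enzyme that makes itaconate, and it is disrupted in every cell of these mice. Bone marrow was cultured with 20 ng/ml M-CSF for 7 days, which yields cultured macrophages and not a resident tissue population. BMDMs were left unstimulated (Unstim.), or received 100 ng/ml LPS, a bacterial cell wall component sensed by TLR4. LPS 3h cells (non-tolerized) were stimulated for 3 h and LPS 24h cells were harvested directly after 24 h. LPS 24h->LPS 3h cells (tolerized) had 24 h of LPS, a medium change with 1 h of rest, and LPS again for 3 h. With 3 independent cultures in each of the 8 groups, there were 24 libraries.

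GBPs and IRGs are large GTPases made by cells exposed to interferon. They gather on the membranes around intracellular bacteria and parasites, where GBPs help expose bacterial LPS to caspase-11 and IRGs break down the vacuole. In macrophages, LPS reaches these genes largely through secreted IFN-β, which acts through the interferon receptor and IRF9, and through newly made IRF1.

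Reads assigned to genes numbered 3927378 to 20430359 per library, with a median of 11539055.5, and 11878 genes were tested. Acod1 separated the genotypes after LPS: its level was 3794 to 28063 CPM (the read count scaled to a fixed library total) in the 9 stimulated WT libraries and 1.58 to 26.4 in the 9 stimulated Irg1-/- libraries. In unstimulated cells it was at 5.82 to 11.9 over both genotypes and did not separate them. The 9 macrophage markers summed to 5335 to 10746 CPM in every library, and the 13 T and NK cell markers to 0.346 to 11.3. The 8 neutrophil and progenitor markers summed to 412 to 719 CPM in unstimulated and LPS 3h libraries and to 65.1 to 231 after 24 h with or without restimulation, so they move with the treatments compared here. The 6 stromal markers did so too, at 269 to 438 CPM in unstimulated and LPS 3h libraries, 167 to 246 after 24 h and 109 to 176 after restimulation. The 6 dendritic cell markers summed to 3.67 to 13 CPM after LPS 3h and to 1.1 to 2.06 after 24 h, and the 6 B cell markers to 2.87 to 17.2 over all libraries. The part of these lists in the results was not tested. In bulk RNA, fewer cells of a type and less RNA per cell cannot be told apart. A numbered prefix of the labels splits the libraries into 4 sets, read here as library pools although the labels do not say what it is. All unstimulated libraries are in pool 4 and no stimulated Irg1-/- library is, so pool and stimulation cannot be told apart in the Irg1-/- comparisons with Unstim. The Irg1-/- LPS 24h libraries (pool 1) and LPS 3h libraries (pools 2 and 3) share no pool either, so pool and time cannot be told apart between them. Stimulated Irg1-/- groups share pool 1 (LPS 24h and restimulated) and pool 2 (LPS 3h and restimulated).

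The promoters of the members are shown because all 9 genes responded to LPS together. RefSeq windows of 300 bases (250 before to 50 after the annotated start, GRCm38.p6) were used for 7 members, with 2 windows for Gbp3. On either strand they were searched for an ISRE-like motif (GAAANNGAA, read by IRF family factors), a GAS-like motif (TTCNNNGAA, the interferon-γ-activated site) and a kB-like motif (GGGNNTTTC, read by NF-κB). The 60-base stretches around the ISRE-like matches follow, 5′ to 3′ in the direction of transcription, with the match in capitals (matches on the opposite strand begin with TTC, and overlapping matches run together).
Gbp2, chr3:142620575-142620634, plus strand: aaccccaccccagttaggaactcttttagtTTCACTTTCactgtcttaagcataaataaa
Gbp3, chr3:142559970-142560029, plus strand: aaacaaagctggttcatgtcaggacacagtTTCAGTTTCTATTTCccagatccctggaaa
Gbp5, chr3:142496740-142496799, plus strand: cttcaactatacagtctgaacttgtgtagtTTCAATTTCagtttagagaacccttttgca
Gbp7, chr3:142530254-142530313, plus strand: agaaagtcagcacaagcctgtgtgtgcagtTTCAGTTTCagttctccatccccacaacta
Irgm1, chr11:48871421-48871480, minus strand: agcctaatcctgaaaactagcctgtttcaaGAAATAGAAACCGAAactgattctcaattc
Irgm2, chr11:58214883-58214942, plus strand: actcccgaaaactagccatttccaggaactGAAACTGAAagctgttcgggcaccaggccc
Igtp, chr11:58199492-58199551, plus strand: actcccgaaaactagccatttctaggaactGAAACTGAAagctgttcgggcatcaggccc

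An ISRE-like motif was found in 7 of the 8 windows, 1 for each of the 7 members, against 8.56% of 32851 promoter windows of the same length. The windows of Gbp3 and Irgm1 each held an overlapping pair. The Irgm2 and Igtp stretches matched at 58 of 60 bases. GAS-like matches were present in 4 of the 8 windows (Gbp5, Gbp7, Irgm2 and Igtp), against 8.3% of all windows, and these 4 windows held both motifs, which 1.07% of all windows do. A kB-like match was present in 3 of the 8 windows (Gbp2, Gbp3 and Gbp5), against 4.36%. The ISRE-like match lay within 70 bases upstream of the start in 6 windows, a distance chosen after the positions were seen and met by 1.9% of all windows, and 164 bases upstream in Gbp5. A match describes letters in the window and not a site in use. Starts here are those of RefSeq and can differ from the GENCODE M21 gene starts given below. The Irgm2 window begins at 58214727 and the Gbp5 window at 142496684, inside genes that begin at 58199618 and 142493978.

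**Figure D1:**
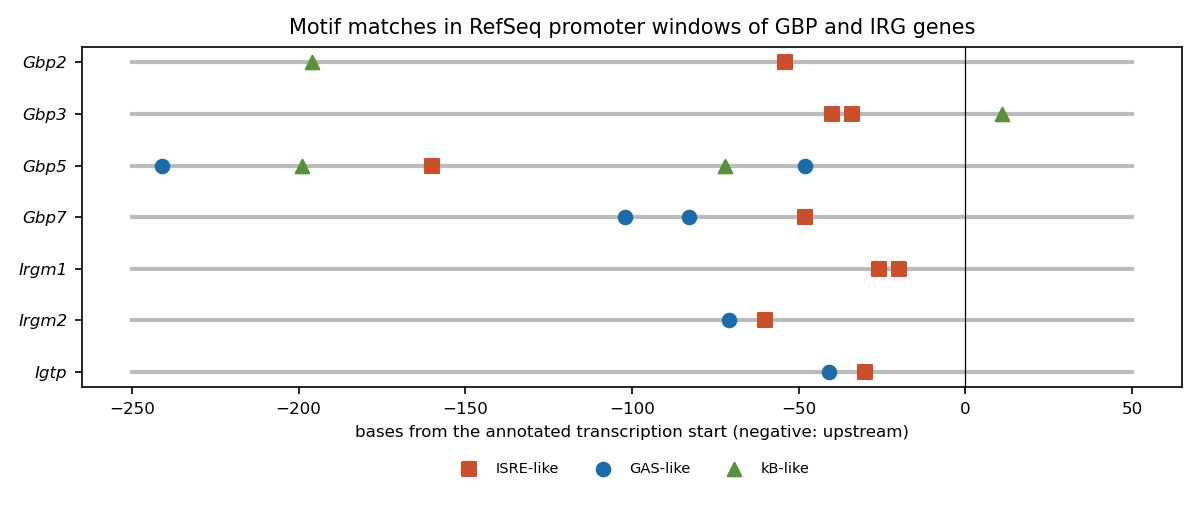
Position of ISRE-like, GAS-like and kB-like matches (symbols) along the promoter window of each of 7 members, in bases from the annotated transcription start. Squares for the ISRE-like motif lie within 70 bases upstream of the start in every row except Gbp5; the downstream Gbp3 window, which holds no match, is not drawn.

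LPS for 3 h raised all 9 members in both genotypes. In WT cells all 9 were called higher than in Unstim. (edgeR quasi-likelihood test, Benjamini-Hochberg adjusted p under 0.05), against 15.8% of all genes tested, and the log2 fold changes ran from 4.45 (Gbp9) to 9.45 (Gbp5) with a median of 6.41. In Irg1-/- cells all 9 were called higher as well, against 17% of all genes, with a median of 6.99. The median over all genes tested was -0.18 in WT and -0.20 in Irg1-/- cells. Levels below are in the same CPM scaled by TMM, written as normalized CPM, and are given for replicates 1, 2 and 3 in that order. They were compared between libraries and not between genes.

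Among the GBPs of the chromosome 3 cluster, Gbp5, which promotes NLRP3 inflammasome assembly, had the widest range. In WT cells Gbp5 was at 2.71, 2.58 and 2.49 normalized CPM in Unstim. and at 1610, 1688 and 2158 after LPS 3h (log2 fold change 9.45 ± 0.79 SE, adjusted p = 3e-11). In Irg1-/- cells it was at 4.52, 1.32 and 3.96 in Unstim. and at 2166, 1388 and 2664 after LPS 3h (9.26 ± 0.79, adjusted p = 5.1e-11). The groups do not overlap in either genotype. Gbp2, a GBP recruited to bacteria and to parasite vacuoles, was at 9.47, 5.82 and 5.95 normalized CPM in WT Unstim. and at 1262, 1352 and 975 after LPS 3h (log2 fold change 7.40 ± 0.41, adjusted p = 3.49e-15). The Irg1-/- cells had a rise in Gbp2 from 11.5, 5.65 and 9.64 to 1418, 1196 and 812 (6.99 ± 0.41). Every LPS 3h library of either genotype was far above the highest unstimulated library.

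Gbp3 and Gbp7 are neighbours of Gbp2 and Gbp5 with the same GTPase fold. Gbp3 rose in WT cells from 13.5, 8.69 and 10.2 to 1486, 3159 and 1122 normalized CPM (log2 fold change 7.47 ± 0.58), and in Irg1-/- cells from 5.14, 9.42 and 19.3 to 2067, 2036 and 2357 (7.54 ± 0.59). Gbp7 rose in WT cells from 16, 26.7 and 21.7 to 1725, 1811 and 1936 (6.41 ± 0.33), and in Irg1-/- cells from 33.5, 29.4 and 34.2 to 2020, 1484 and 1808 (5.77 ± 0.33). Replicates of Gbp7 after LPS 3h lay close together, whereas WT replicate 2 of Gbp3 stood above the other two. Gbp9, from the chromosome 5 cluster, rose least in WT cells, from 3.54, 2.2 and 2.97 to 66.2, 70.9 and 54.8 (4.45 ± 0.78). In Irg1-/- cells Gbp9 rose from 5.3, 0.377 and 4.87 to 109, 61.1 and 51.5 (4.32 ± 0.78), with 2 to 91 reads per library in Unstim.

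Of the IRGs, Iigp1, an effector that loads onto parasite vacuoles, rose most in WT cells. It was at 2.13, 2.48 and 2.78 normalized CPM in WT Unstim. and at 781, 1277 and 1199 after LPS 3h (log2 fold change 8.77 ± 0.52, adjusted p = 1.11e-14). Iigp1 rose in Irg1-/- cells from 4.83, 6.03 and 4.92 to 1440, 1381 and 2054 (8.28 ± 0.51). The regulatory IRGs Irgm2 and Igtp (also called Irgm3), which keep effector IRGs off the cell's own membranes, rose by smaller factors. Irgm2 went from 11.9, 10.3 and 9.75 to 323, 294 and 332 in WT cells (4.89 ± 0.29), and from 14.3, 13.2 and 12.8 to 295, 284 and 344 in Irg1-/- cells (4.51 ± 0.28). Igtp went from 3.74, 9.07 and 5.36 to 252, 195 and 198 in WT cells (5.16 ± 0.44), and from 15, 11.5 and 4.34 to 204, 187 and 196 in Irg1-/- cells (4.28 ± 0.43).

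Irgm1, the third regulatory IRG and a factor in autophagy, was the least uniform member. In WT cells it rose from 1.22, 3.63 and 1.85 to 39.2, 17.7 and 115 normalized CPM (log2 fold change 4.71 ± 0.92, adjusted p = 0.000145). In Irg1-/- cells it rose from 0.623, 0.188 and 1.5 to 754, 111 and 17.1 (8.28 ± 1.10, adjusted p = 3.97e-07). The Irg1-/- Unstim. libraries held 1 to 28 reads on Irgm1, so the size of this change rests on a baseline of few reads. The first Irg1-/- LPS 3h library stood far above the other two, with 7321 reads on Irgm1, and without it the change was 6.14 (adjusted p = 3.05e-06). No other member showed such a gap in that library, as the plot of levels by library shows.

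**Figure D2:**
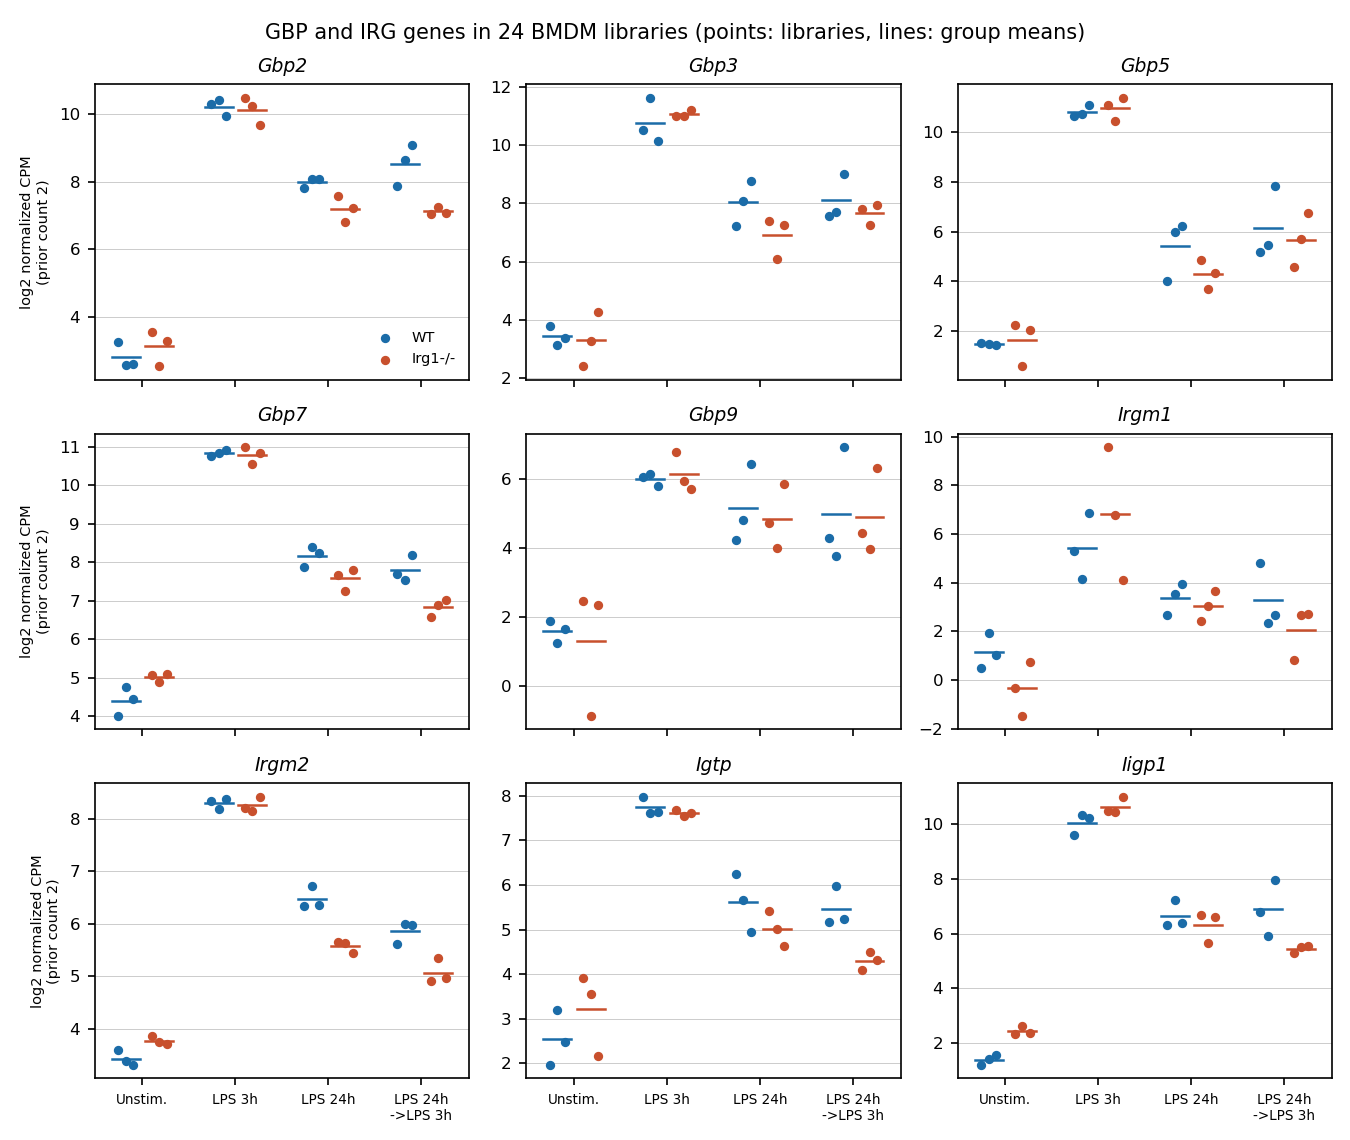
log2 normalized CPM (prior count 2) of each member in the 24 libraries, by treatment, with WT in blue and Irg1-/- in red; points are libraries and lines are group means. Group means of all 9 members are highest after LPS 3h in both genotypes, the 3 Irg1-/- points of Irgm1 after LPS 3h spread from 17.1 to 754 normalized CPM, and Gbp9 has 1 high point in each 24 h and restimulated group.

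After 24 h of LPS the members were between the unstimulated and the 3 h level. In WT cells 8 of 9 were higher than in Unstim. (9.25% of all genes were called higher), and in Irg1-/- cells all 9 were (7.31%). Irgm1 was the exception in WT cells, at 6.21, 11.3 and 15.4 normalized CPM after 24 h (log2 fold change 2.33 ± 0.86, adjusted p = 0.0626). Against LPS 3h, 8 of 9 members were lower in WT cells (15.5% of all genes) and 8 of 9 in Irg1-/- cells (16.9%), with median log2 fold changes of -2.38 and -3.20 against 0.14 and 0.15 over all genes. The exception in both genotypes was Gbp9. In Irg1-/- cells the LPS 24h and LPS 3h groups share no pool, so pool and time cannot be told apart in these falls. The 24 h comparisons with Unstim. and with LPS 3h use the same LPS 24h libraries, as do those with restimulated cells below.

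Gbp5 dropped furthest in both genotypes. It was at 15.8, 62.7 and 75.6 normalized CPM in WT LPS 24h (log2 fold change against LPS 3h -5.14 ± 0.65, adjusted p = 2.82e-07) and at 28.8, 12.5 and 20 in Irg1-/- LPS 24h (-6.66 ± 0.69, adjusted p = 6.51e-09). The mean after 24 h was 2.82% of the 3 h mean in WT cells and 0.986% in Irg1-/- cells. Iigp1 followed in WT cells, at 78.6, 148 and 83.4 (-3.39 ± 0.40), and stood at 103, 50.1 and 96.6 in Irg1-/- cells (-4.28 ± 0.41). Gbp2, at 224, 268 and 267 in WT LPS 24h, kept 21.2% of its 3 h mean (-2.24 ± 0.32), and at 188, 110 and 150 in Irg1-/- cells it kept 13.1% (-2.93 ± 0.33).

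Irgm2 was at 81.3, 105 and 82.1 normalized CPM in WT LPS 24h, which is 28.4% of its 3 h mean (log2 fold change -1.82 ± 0.25), and at 50.2, 49.3 and 43.3 in Irg1-/- cells, or 15.5% (-2.69 ± 0.26). Igtp was at 76.2, 50.3 and 30.8 in WT cells (-2.04 ± 0.38) and at 42.8, 32 and 24.5 in Irg1-/- cells (-2.56 ± 0.39). Gbp7, at 235, 334 and 300 in WT and 204, 153 and 220 in Irg1-/- cells, was lower than after LPS 3h by 2.66 ± 0.28 and 3.20 ± 0.29 on the log2 scale. Gbp3, at 150, 272 and 441 in WT and 167, 68.1 and 152 in Irg1-/- cells, was lower by 2.74 ± 0.47 and 4.06 ± 0.50. All 3 WT and all 3 Irg1-/- libraries of each of these genes lay below every LPS 3h library of the same genotype. Irgm1 fell in WT cells (-2.38 ± 0.81, adjusted p = 0.0246), a call that is lost without WT LPS 3h replicate 3 (-1.42, adjusted p = 0.226), LPS 24h replicate 1 (adjusted p = 0.0882) or LPS 24h replicate 2 (adjusted p = 0.0642). In Irg1-/- cells, at 5.14, 8.13 and 12.4, it fell by 5.09 ± 0.91, and by 2.95 without the high LPS 3h library.

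Gbp9 did not pass the test between 24 h and 3 h. It was at 18.6, 27.7 and 85.4 normalized CPM in WT LPS 24h (log2 fold change -0.54 ± 0.66, adjusted p = 0.563) and at 26.1, 15.6 and 57 in Irg1-/- LPS 24h (-1.16 ± 0.67, adjusted p = 0.177). Replicate 3 was the highest in both genotypes, and the same was seen after restimulation, with 19.1, 13.4 and 120 in WT and 21.5, 15.3 and 79.1 in Irg1-/- cells. These WT libraries belong to pool 4, whereas the 3 Irg1-/- LPS 24h libraries share pool 1. The part of the pool in the spread of Gbp9 was not tested. Of the 50-base sequences in the 3′ ends of its transcripts, 3.77% also occur in Gbp6, Gbp10 or Gm43302.

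Restimulation after 24 h of LPS did not detectably bring the members back. In LPS 24h->LPS 3h against LPS 24h, edgeR's test called 0 of 9 members in WT cells, where 2.46% of all genes were called higher and 1.53% lower, and 0 of 9 in Irg1-/- cells, where 3.44% were called higher and 1.7% lower. At an unadjusted p under 0.05 there were 1 member in WT and 3 in Irg1-/- cells. DESeq2's Wald test called 1 in each, Irgm2 in WT and Gbp7 in Irg1-/- cells, both lower. Here and below, the share of all genes was not computed for unadjusted p-values or for DESeq2, so those counts have no background. Within pool 1 of the Irg1-/- cells, the restimulated against LPS 24h values ran from -0.80 (Iigp1) to 1.93 (Gbp5). The median log2 fold change of the members was 0.22 in WT and -0.49 in Irg1-/- cells, with ranges of -0.62 to 1.00 and -0.94 to 1.57. Against LPS 3h, which had the same final 3 h of LPS, 8 of 9 members were lower in restimulated WT cells (13.1% of all genes) and 8 of 9 in restimulated Irg1-/- cells (14.1%), Gbp9 again being the exception. Within pool 2 of the Irg1-/- cells, with 1 library each, all 9 members were below LPS 3h, by -8.73 (Irgm1) to -2.33 (Gbp9). The LPS 3h library there is replicate 1, which stood far above the others for Irgm1. Apart from Irgm1 the lowest value was -6.51 (Gbp5).

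Gbp5 had the highest change on restimulation in both genotypes without passing the test. Its levels in LPS 24h->LPS 3h were 35.5, 43.8 and 228 normalized CPM in WT cells (log2 fold change against LPS 24h 1.00 ± 0.55, adjusted p = 0.374) and 23.6, 51.2 and 107 in Irg1-/- cells (1.57 ± 0.56, adjusted p = 0.113). Groups overlapped in both genotypes, and every restimulated library stayed below the lowest LPS 3h library, at 1388. Gbp2 was at 234, 400 and 541 in restimulated WT cells (0.63 ± 0.31, adjusted p = 0.309) and at 132, 153 and 133 in Irg1-/- cells (-0.10 ± 0.31, adjusted p = 0.94). Against LPS 3h Gbp2 was lower by 1.61 ± 0.32 in WT cells and by 3.04 ± 0.33 in Irg1-/- cells.

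Gbp7 was at 206, 184 and 292 in restimulated WT cells (-0.35 ± 0.26 against LPS 24h) and at 94.9, 118 and 129 in restimulated Irg1-/- cells (-0.76 ± 0.27, adjusted p = 0.108). Irgm2 was at 49, 63.4 and 62.6 in WT cells (-0.62 ± 0.24, adjusted p = 0.169) and at 30, 40.4 and 31 in Irg1-/- cells (-0.49 ± 0.24, adjusted p = 0.319). Each restimulated library of Irgm2 was below every LPS 24h library of its genotype, and in Irg1-/- cells the same held for Gbp7, Igtp and Iigp1. That is 1 of 9 members in WT and 4 of 9 in Irg1-/- cells, against 9.1% and 15.5% of all genes tested. Igtp was at 35.6, 62.5 and 37.5 in WT cells and 16.9, 22.5 and 19.7 in Irg1-/- cells, and Gbp3 at 192, 211 and 514 in WT cells and 226, 152 and 247 in Irg1-/- cells. Iigp1 went apart in the genotypes by value, with 111, 60 and 251 in WT cells (0.44 ± 0.36) and 39, 45 and 46.2 in Irg1-/- cells (-0.94 ± 0.37). The difference between genotypes in that response was -1.39 ± 0.52 and did not pass (adjusted p = 0.394). Irgm1 was at 27.9, 4.87 and 6.14 in WT cells and 1.61, 6.24 and 6.3 in Irg1-/- cells; its lower level than after LPS 3h in WT cells (-2.16 ± 0.81, adjusted p = 0.0482) came with overlapping groups. It is not called by DESeq2 (adjusted p = 0.0788), nor without WT LPS 3h replicate 3 (-1.18, adjusted p = 0.358), LPS 24h->LPS 3h replicate 2 (adjusted p = 0.174) or LPS 24h->LPS 3h replicate 3 (adjusted p = 0.152).

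**Figure D3:**
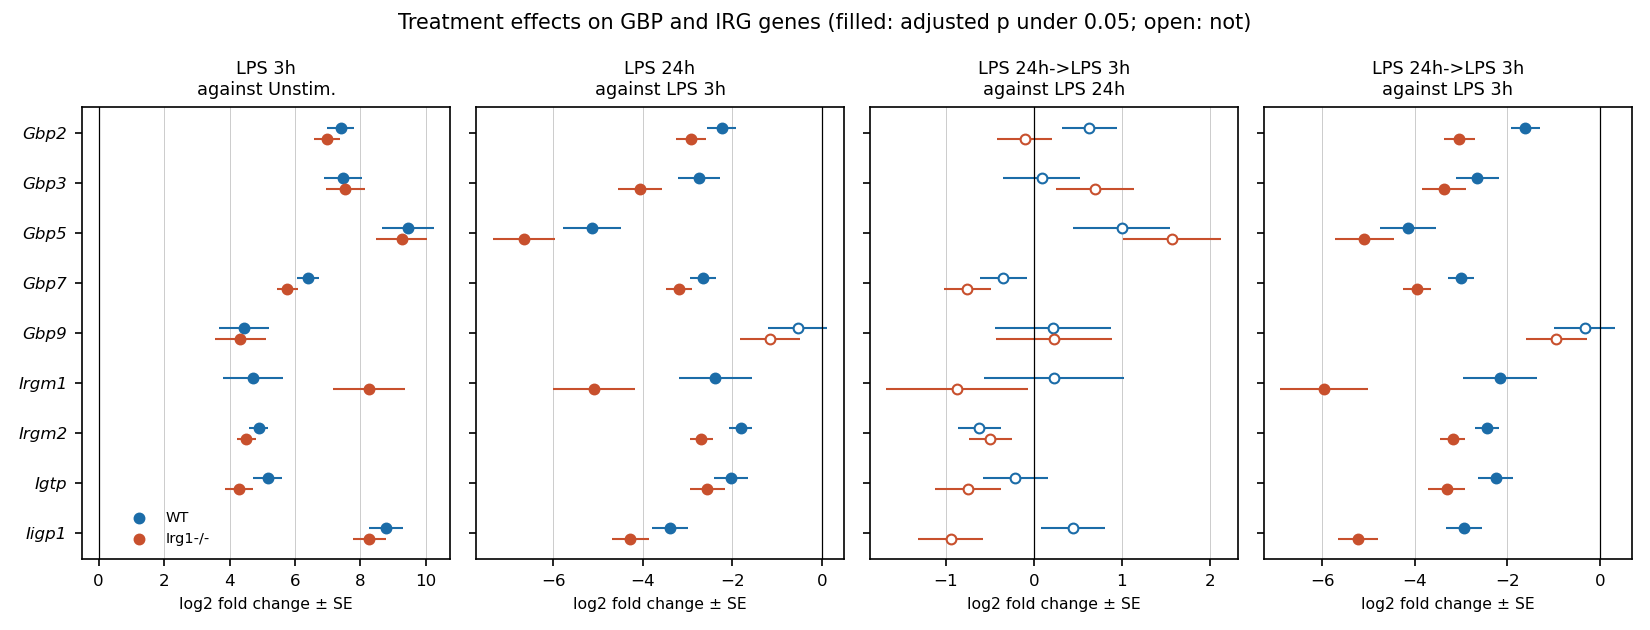
log2 fold change (points) with SE (bars) of each member for 4 comparisons of treatments, WT in blue and Irg1-/- in red; filled points have an adjusted p under 0.05. Points are right of 0 for LPS 3h against Unstim. in all 9 members, open and around 0 for restimulation against LPS 24h, and left of 0 in both comparisons with LPS 3h, with only Gbp9 open there.

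The genotypes were compared within each treatment. In Unstim. cells edgeR called 0 of 9 members, where 0.0421% of all genes were called either way, and DESeq2 called 0. At an unadjusted p under 0.05 there were 2, Gbp7 and Iigp1, at log2 fold changes of 0.60 ± 0.27 and 1.08 ± 0.41, Irg1-/- against WT. By value 8 of 9 members were higher in Irg1-/- cells, all except Irgm1 (-1.21). Groups did not overlap for 3 of the 9, Irg1-/- being higher, a count with no share of all genes beside it. After LPS 3h edgeR also called 0 of 9 (0.00842% of all genes), with 1 at an unadjusted p under 0.05, Irgm1, and 0 by DESeq2. At that time 8 of the 9 differences lay between -0.14 ± 0.37 (Igtp) and 0.58 ± 0.36 (Iigp1). Irgm1 was 2.36 ± 0.80 higher in Irg1-/- cells by value (adjusted p = 0.559) and 0.16 higher without the outlying library.

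After 24 h of LPS all 9 members were lower in Irg1-/- than in WT cells by value, and edgeR called 0 of them, where 0.497% of all genes were called lower. The log2 differences ran from -1.33 (Gbp5) to -0.31 (Iigp1) with a median of -0.66, against -0.01 over all genes. At an unadjusted p under 0.05 there were 5 members, and DESeq2 called 1, Irgm2. Irgm2 had the smallest adjusted p in edgeR's test, 0.0819, at -0.91 ± 0.24, and its WT libraries (81.3 to 105) did not overlap the Irg1-/- libraries (43.3 to 50.2). WT LPS 24h replicate 3 stood apart in the share of mitochondrial reads, 0.709% against 1.55% to 3.50% in the other 23 libraries, and held the highest WT values of Gbp3, Gbp5, Gbp9 and Irgm1 at this time. Without it 7 of 9 differences were below 0, Gbp9 was at 0.55, Irgm1 at 0.0096 and Gbp3 at -0.67, and 0 members were called. The part of library quality was not tested. The Gbp3 difference was -1.16 ± 0.44 (adjusted p = 0.311) and that of Gbp5 -1.33 ± 0.56 (adjusted p = 0.385). Groups did not overlap for 3 of the 9 members, with the WT libraries higher, which holds for 8.99% of all genes tested. Within pool 1, with 3 Irg1-/- libraries and 1 WT library, 5 of the 9 differences were below 0: Gbp2 -0.62, Gbp3 -0.32, Gbp7 -0.30, Irgm2 -0.77 and Igtp -1.24, while that of Gbp9 was 0.61 and that of Gbp5 0.29.

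In tolerized cells (LPS 24h->LPS 3h) all 9 members were again lower in Irg1-/- cells by value, from -1.70 to -0.40 on the log2 scale with a median of -0.997, against -0.03 over all genes. edgeR called 1 of 9, Gbp2, where it called 0.0926% of all genes lower. DESeq2 called 4, Gbp2, Gbp7, Irgm2 and Iigp1, and its share of all genes was not computed. The Gbp2 levels of 234, 400 and 541 normalized CPM in WT cells and 132, 153 and 133 in Irg1-/- cells do not overlap (log2 fold change -1.49 ± 0.32, 2.81-fold lower, adjusted p = 0.0453). That call sits at the threshold. It is lost when the fit holds the 2 compared groups alone (adjusted p = 0.193), with the pool as a term (-1.35, adjusted p = 0.103) and when genes need 10 counts on average (adjusted p = 0.0534). It is also lost without any 1 of 5 of the 6 libraries: without WT replicate 3 the difference was -1.15 (adjusted p = 0.245), without WT replicate 2 it was -1.47 (adjusted p = 0.1), and without Irg1-/- replicate 1, 2 or 3 the adjusted p was 0.197 to 0.222. Within pools the Gbp2 difference was -0.71 in pool 1 and -1.60 in pool 2.

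Iigp1 had the largest difference in tolerized cells, -1.70 ± 0.37 (adjusted p = 0.0599). Its WT libraries at 111, 60 and 251 normalized CPM were all above the Irg1-/- libraries at 39, 45 and 46.2, and the difference was -1.28 within pool 1 and -0.62 within pool 2. Without WT replicate 3 it was -0.94 (adjusted p = 0.451), and without WT replicate 2 it was -2.06 (adjusted p = 0.00979). Gbp7 (-0.997 ± 0.27, adjusted p = 0.145), Irgm2 (-0.79 ± 0.24, adjusted p = 0.242) and Igtp (-1.20 ± 0.38, adjusted p = 0.248) were lower in both pools as well. So was Irgm1, at -2.12 in pool 1 and -1.50 in pool 2 (-1.45 over all libraries, not called), although its groups overlapped. Gbp9 was higher in Irg1-/- cells in both pools (0.86 and 0.68), opposite to its value over all libraries (-0.40 ± 0.66). Gbp3 was at 0.017 and 0.10 in pools 1 and 2 against -0.55 ± 0.44 over all libraries, and Gbp5 at 1.06 in pool 1 and -0.89 in pool 2. Groups did not overlap for 5 of the 9 members, against 6.42% of all genes tested, the WT libraries being higher each time.

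The difference between genotypes in a response was tested as an interaction. For LPS 3h against Unstim., for LPS 24h against Unstim. and for restimulation against LPS 24h, edgeR called 0 of 9 members (0.00842%, 0.21% and 0.00842% of all genes were called either way). At an unadjusted p under 0.05 there were 1, 6 and 1 members, and DESeq2 called 0, 1 (Irgm2) and 0. For LPS 24h against Unstim. 8 of 9 interactions were below 0, with a median of -1.25, and Irgm2 had the smallest adjusted p (-1.25 ± 0.35, 0.177). The 24 h genotype differences and these interactions rest on the same LPS 24h libraries. These interactions also hold the Unstim. genotype difference, where 8 of 9 members were higher in Irg1-/- cells by value.

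**Figure D4:**
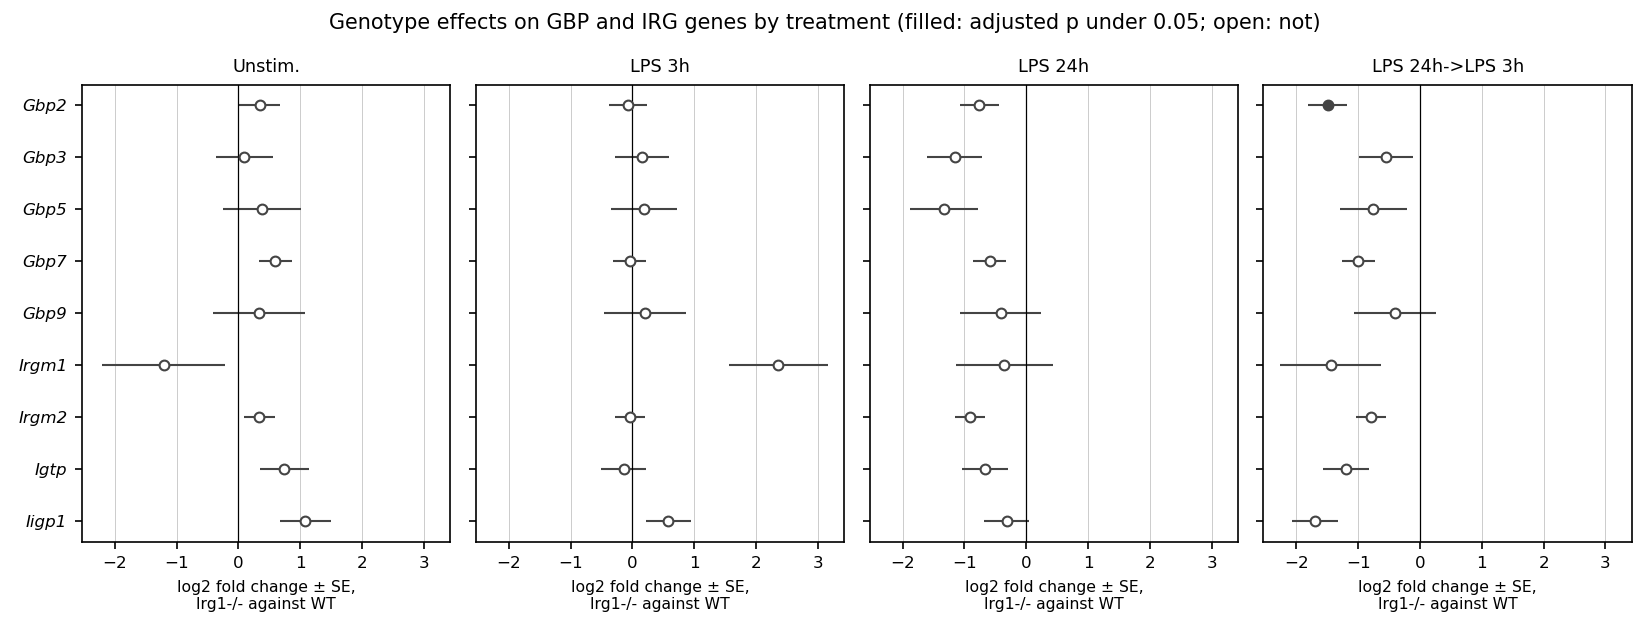
log2 fold change of Irg1-/- against WT (points) with SE (bars) for each member in the 4 treatments; the filled point has an adjusted p under 0.05. All 9 points are left of 0 in both the LPS 24h and the tolerized cells, and Gbp2 in tolerized cells (-1.49) is the only filled point.

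Of 18 further GBP and IRG names, 17 were listed in the table and 13 passed the filter. After LPS 3h 10 of the 13 were called higher and 0 lower in either genotype. Of all genes, 15.8% were called higher and 16.3% lower in WT cells, and 17% and 18.9% in Irg1-/- cells. Tgtp2, an effector IRG, was at 0.0644, 0.0955 and 0.0488 normalized CPM in WT Unstim. and at 20, 15.3 and 35.6 after LPS 3h, and at 2.8, 2.77 and 1.91 after 24 h. The Unstim. values lie below the level that 3 reads give in those libraries (0.193, 0.286 and 0.146), so they are no measured baseline. Gm4951, an IRG gene model, was at 316, 404 and 381 in WT cells after LPS 3h and at 202, 287 and 314 after LPS 24h (log2 fold change -0.46 ± 0.31, adjusted p = 0.275). On restimulation Gm4951 fell in WT cells to 91.5, 83.6 and 196 (-1.11 ± 0.32, adjusted p = 0.0409) and in Irg1-/- cells from 231, 186 and 205 to 53, 45.1 and 51.3 (-2.06 ± 0.33, adjusted p = 7.22e-05). Restimulated Irg1-/- cells had 4 of the 13 genes called lower than after LPS 24h (1.7% of all genes) and WT cells 1 (1.53%). Irg1-/- against WT gave 0 of 13 calls in each treatment, with 4, 0, 1 and 6 at an unadjusted p under 0.05 in unstimulated, LPS 3h, LPS 24h and tolerized cells and 0, 0, 0 and 2 calls by DESeq2.

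The interferon pathway list of 20 genes had 18 tested, with Ifng among the 2 left out, at 0 reads in every library. In WT cells 15 of 18 rose after LPS 3h and 1 fell, where 15.8% of all genes were called higher and 16.3% lower. Ifnb1, which encodes IFN-β, was at 0 in the 6 unstimulated libraries, at 5.83, 31.9 and 19.6 normalized CPM after LPS 3h in WT and 20.5, 10 and 8.97 in Irg1-/- cells, and at most 3.39 in every 24 h and restimulated library. Irf1, a transcription factor for GBP and IRG genes, was at 64.8, 64.3 and 56.7 normalized CPM in WT Unstim., at 2194, 2042 and 2137 after LPS 3h, at 116, 173 and 265 after 24 h, and at 139, 124 and 222 after restimulation. The restimulated and LPS 24h libraries of Irf1 overlapped (-0.19 ± 0.28 in WT, adjusted p = 0.82). Irf1 was the 1 gene of this list called between genotypes after LPS 24h, at 93.9, 76 and 62.8 in Irg1-/- cells (-1.25 ± 0.29, adjusted p = 0.0314). Without WT LPS 24h replicate 3, 0 genes of the list were called.

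Irf7, a transcription factor that amplifies interferon production, was at 338, 618 and 229 normalized CPM after LPS 3h and at 979, 676 and 471 after 24 h in WT cells (log2 fold change 0.84 ± 0.37, adjusted p = 0.0807). Socs1, which restrains interferon signalling, was at 184, 194 and 240 after LPS 3h, 18.1, 17.7 and 8.69 after 24 h and 36, 45.3 and 20.9 after restimulation in WT cells. Socs1 rose on restimulation of Irg1-/- cells from 10.1, 12 and 7.73 to 54.8, 32.3 and 28.7 (1.96 ± 0.37, adjusted p = 0.000782).

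**Figure D5:**
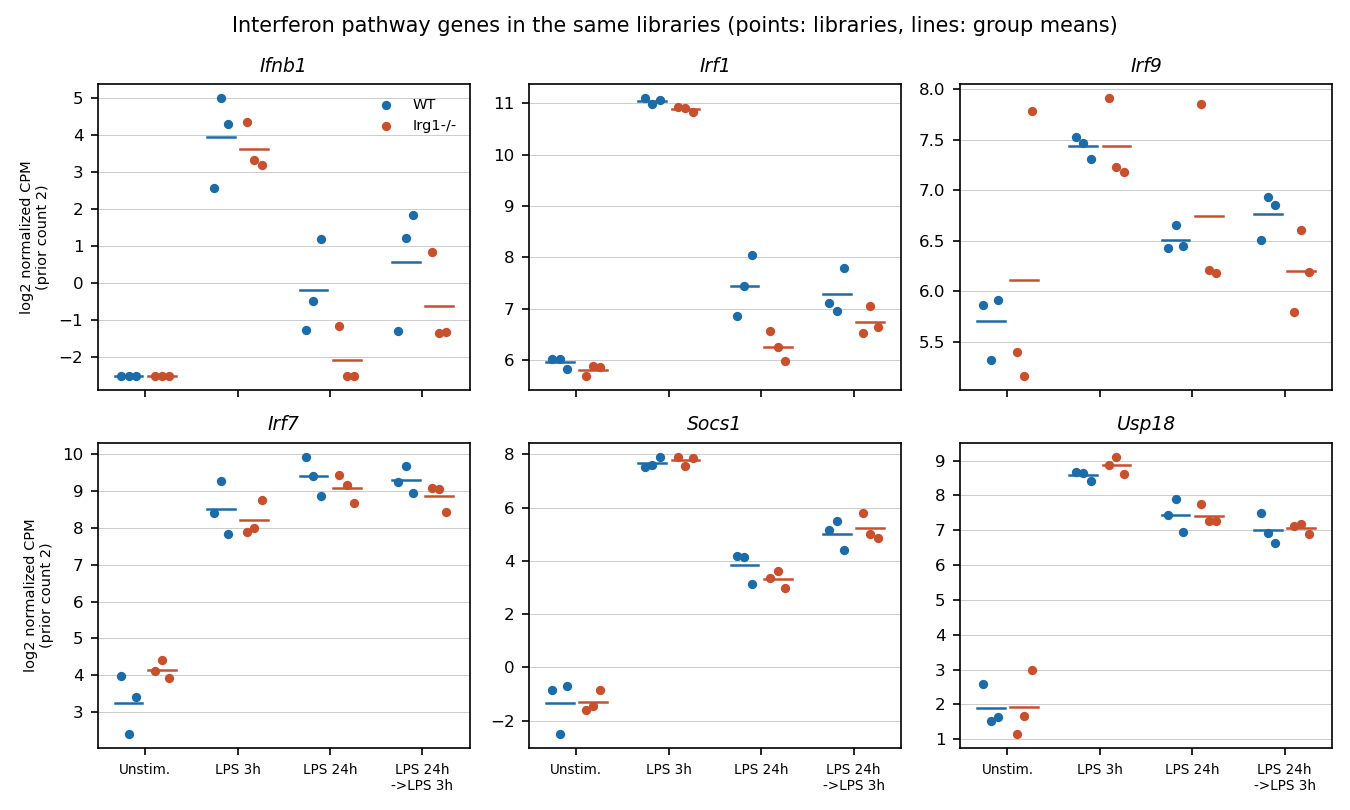
log2 normalized CPM (prior count 2) of 6 interferon pathway genes in the 24 libraries by treatment, WT in blue and Irg1-/- in red, with points for libraries and lines for group means. Irf1, Ifnb1 and Socs1 peak after LPS 3h as the members do, whereas WT Irf7 is higher by value at 24 h and Irf9, part of the interferon-activated transcription complex, moves over a smaller range. Usp18, an inhibitor of interferon receptor signalling, is shown beside them.

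Of 20 partners and effectors of the GTPases, 10 rose and 4 fell after LPS 3h in WT cells, and 11 rose and 4 fell in Irg1-/- cells. Over all genes, 15.8% were called higher and 16.3% lower in WT cells, and 17% higher and 18.9% lower in Irg1-/- cells. Casp4, which encodes caspase-11, went from 24.7, 18.1 and 11.9 to 326, 336 and 455 normalized CPM in WT cells (log2 fold change 4.35 ± 0.33), to 111, 109 and 70.9 after 24 h and to 118, 103 and 122 after restimulation. Rnf213, a ubiquitin ligase that coats bacterial LPS, went from 75.8, 66.3 and 68.6 to 1623, 1352 and 1218 (4.31 ± 0.29), then to 464, 538 and 496 after 24 h. Sqstm1, an autophagy adaptor, rose on restimulation in Irg1-/- cells, from 395, 288 and 382 to 1248, 1101 and 1192 (1.73 ± 0.33, adjusted p = 0.000898), and was lower in Irg1-/- than in WT cells after 24 h (-1.46 ± 0.33, adjusted p = 0.0292), a call also lost without WT LPS 24h replicate 3. Gabarapl2, through which ubiquitin-like conjugates guide GBPs and IRGs to vacuoles, did not pass in any of these comparisons (0.11 ± 0.33 for LPS 3h against Unstim. in WT cells).

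Across the 24 libraries, 36 pairs of members had correlations of their log2 normalized CPM between 0.717 (Gbp9 and Igtp) and 0.990 (Gbp7 and Irgm2). Irgm1 and Gbp9 were least like the members' mean profile (r = 0.875 and 0.877) and Gbp7 and Iigp1 most (0.989 and 0.987). The 5 other genes most like that profile were Cmpk2 (0.991), Rsad2 (0.987), Trim30c (0.985), Ifi204 (0.985) and Herc6 (0.980). Rsad2, encoding viperin, averaged 63.7 normalized CPM in WT Unstim. and 51083 after LPS 3h, and then 6889 at 24 h and 7580 in tolerized cells. In Irg1-/- cells the Rsad2 means were 134, 48999, 2005 and 2353 in the same order, so a lower Irg1-/- mean at 24 h and in tolerized cells is not particular to the members. These coefficients describe libraries that share treatments and pools.

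Gbp5, Gbp7, Gbp3 and Gbp2 lie in this order on the plus strand of chromosome 3 in GRCm38, from 142493978 (start of Gbp5) to 142638008 (end of Gbp2), and Gbp9 lies on the minus strand of chromosome 5 from 105077630 to 105139539. Igtp (58199556 to 58207591) and Irgm2 (58199618 to 58222782) overlap on the plus strand of chromosome 11 and share 162 exonic bases, and Gbp7 shares 637 exonic bases on its own strand with the gene model Gm43802. Irgm1 lies on the minus strand of chromosome 11 from 48861968 to 48871683. Iigp1 is on chromosome 18. All 9 are annotated as protein-coding, and reads come mainly from the 3′ ends of their transcripts. In the last 500 bases of their transcripts, 5 members (Gbp2, Gbp7, Irgm2, Igtp and Iigp1) held no 50-base sequence found in another gene, Gbp3 shared 3.25% with Gbp7, and Gbp5 and Irgm1 shared 1.62% and 4.84% with unrelated genes. Since the counting rule is not given in the sources used here, levels of these overlapping or sequence-sharing genes, Gbp3, Gbp5, Gbp7, Gbp9, Irgm1, Irgm2 and Igtp, are uncertain to that extent.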

How the data were processed

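For 3′ end RNA-seq, the authors tagged each sample's transcripts with a barcode on the oligo-dT primer, combined and amplified the material, and used STAR with the mm10 genome for alignment. The values used are the deposited counts of reads per gene, whole numbers without normalization. The counting program, annotation, strand setting and any use of molecular identifiers are not given in the sources used here. The table's 5 summary lines were left out. Libraries held 3927378 to 20430359 gene reads.

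Counts were scaled with TMM, filtered with filterByExpr and tested with edgeR 4.0.16 (glmQLFit, glmQLFTest; R 4.3.3) in 1 model of 8 groups over all 24 libraries. P-values were adjusted by Benjamini-Hochberg over the 11878 genes tested. SE is the absolute log2 fold change divided by the square root of F. Log2 CPM used a prior count of 2. Named genes were the members, Acod1, listed family, interferon and partner genes, and the 5 genes most like the members' mean profile; Tgtp2, Gm4951 and Rsad2 were singled out after their values were seen. Members, lists and tests were chosen with earlier results of these data known. Alternatives were DESeq2 1.42.0 (its size factors, and its Wald test), other filters, only the compared groups, a replicate block, a pool term and leaving out each library. The procedure was tested on simulated data. Replicate numbers were not treated as pairs: in 0 of 28 group pairs did every same-numbered correlation exceed 0.1. Between the LPS 24h and restimulated groups of both genotypes, mean same-numbered correlations were 0.071 to 0.171. Those of other numbers were -0.086 to -0.035, so some likeness by number remains there. Of the interferon list, 1 gene is counted but not reported here by name.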

Additional observations from a re-analysis of the deposited data

How the results depend on the processing

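All 8 counts of members called between treatments against Unstim. or LPS 3h stayed within 1.5 times under every alternative run. For restimulation against LPS 24h, DESeq2 called 1 member in WT and 1 in Irg1-/- cells, and in Irg1-/- cells 1 was called with no filter on low counts and 1 with only the compared groups. Between genotypes after LPS 3h, 1 was called with no filter and 1 with the pool term (Irgm1). After LPS 24h the count was 2 with no filter and 1 with DESeq2. In tolerized cells it was 3 with no filter, 4 with DESeq2, and 0 when genes needed 10 counts on average, with only the compared groups or with the pool term, and 0 to 2 when 1 library was left out. For the interaction at LPS 3h, 1 was called with no filter, and for that at LPS 24h 1 with DESeq2. The cause was not tested. DESeq2's size factors moved the members' median by at most 0.07 log2 upward and 0.11 downward.

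Same-numbered libraries were not paired. With the replicate block all 17 counts of called members stayed within 1.5 times, 1 call was lost (WT Irgm1, LPS 24h->LPS 3h against LPS 3h, adjusted p = 0.0697), and 3 uncalled values changed sign: Gbp9 on WT restimulation (-0.026), Gbp3 between unstimulated genotypes (-0.032) and Gbp9 in the LPS 3h interaction (0.055).

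With the pool term, uncalled log2 values changed sign for Gbp9 (-0.078) and Irgm1 (-0.073) on WT restimulation. Between genotypes they did so for Gbp2 (0.19), Gbp3 (-0.016) and Gbp7 (0.24) after LPS 3h, for Gbp9 (0.30) after LPS 24h, and for Gbp5 (0.16) and Gbp9 (0.65) in tolerized cells. In the LPS 3h interaction they did so for Gbp3 (-0.11), Gbp5 (0.22) and Gbp9 (0.87). Gbp9 in the restimulation interaction was at -0.014 with DESeq2's size factors and -0.0099 with its test.

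Leaving out 1 library changed the sign of 30 values, none of them called. On WT restimulation against LPS 24h they ran from -0.52 to 0.60 for Gbp3, -0.38 to 1.44 for Gbp5, -1.45 to 1.21 for Gbp9, -0.46 to 0.17 for Igtp, -0.26 to 0.86 for Iigp1 and -0.97 to 0.64 for Irgm1, and for Gbp9 against LPS 3h from -2.03 to 0.11. On Irg1-/- restimulation they ran from -0.25 to 0.10 for Gbp2 and -0.83 to 0.93 for Gbp9. Between unstimulated genotypes the range was -0.58 to 0.44 for Gbp3 and -0.0059 to 0.78 for Gbp9. After LPS 3h it was -0.25 to 0.13 for Gbp2, -0.10 to 0.74 for Gbp3, -0.031 to 0.43 for Gbp5, -0.14 to 0.087 for Gbp7, -0.17 to 0.41 for Gbp9 and -0.13 to 0.033 for Irgm2. After LPS 24h it was -1.07 to 0.55 for Gbp9, -0.48 to 0.045 for Iigp1 and -0.72 to 0.0096 for Irgm1, and in tolerized cells -0.78 to 0.091 for Gbp3, -1.47 to 0.66 for Gbp5 and -1.49 to 1.29 for Gbp9. Interactions ran from -0.26 to 0.75 for Gbp3, -0.49 to 0.054 for Gbp5 and -0.57 to 0.22 for Gbp9 at LPS 3h, from -1.40 to 0.22 for Gbp9 at LPS 24h, and from -0.14 to 2.00 for Gbp5, -1.08 to 1.71 for Gbp9 and -1.47 to 0.14 for Irgm1 on restimulation. With 3 libraries a group, the exact permutation test of a single value cannot go below p = 0.1.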
